A study of Mus musculus with 24 samples.

Results

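The sites described here are stretches of mouse spinal cord mRNA that carried an N6-methyladenosine (m6A) peak after sham surgery and were missing from the peak lists made after nerve injury. A sham peak was taken when its fold enrichment (antibody-enriched signal over input, as deposited by the authors) was at least 2, its lg.p (base 10 logarithm of the authors' p-value) was at most -5, and it shared no base on the same strand with any row of at least 2 of the 3 injured lists. This gave 495 sites of 21787 such sham peaks with a strand, or 2.27%, in 481 host genes, out of 32669 rows in the sham list. The sites were chosen by the measured fold enrichment and lg.p of the sham list and by the rows of the injured lists, so these values are given as a description and are not tested.

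Spinal cord was taken from mice on day 3, day 7 or day 14 after spared nerve injury (SNI), in which the common peroneal and tibial branches of the sciatic nerve were tied and cut, and from sham mice whose sciatic nerve was exposed and left whole. The sham group is labelled day 3 only, so the later injured days have no sham of their own age. Each of the 4 groups had 3 libraries enriched with an m6A antibody and 3 input libraries, 24 libraries in all. The labels name neither strain, sex and age nor the mouse behind a library, so a p-value here covers library-to-library spread alone, whether technical or between mice. There is 1 peak list per group, with no value per enriched library, so whether a site is present or missing has no replicate check.

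m6A is a methyl mark on adenosine, placed on mRNA during or soon after transcription by a writer complex built around Mettl3 and Mettl14. Fto and Alkbh5 can remove it, and reader proteins such as the Ythdf family bind it and change how the mRNA is spliced, exported, translated or degraded. It lies mostly in the last exon, around the stop codon and in the 3′ untranslated region (UTR), within a short consensus whose core is GGAC. Antibodies against m6A also bind N6,2′-O-dimethyladenosine, a related mark on the first transcribed base when that base is an adenosine, so enriched fragments at the very 5′ end of an mRNA can carry either mark.

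A group of these sites lay at the start of their transcript, and their first bases are shown because the 5′ end of the transcript held a larger share of the missing sites than of the sham peaks that were kept. Sequences are those of RefSeq on GRCm38.p6, and 367 of the 481 host gene symbols had a start window there. In 41 sites the peak covered the whole of the first 50 transcribed bases, and in 9 of these 41 windows (22.0%) the letters GGAC occurred on the transcribed strand. The 6 stretches of 30 bases shown first hold that motif, in capitals, read 5′ to 3′ from the transcribed strand.
Efnb2 (chr8:8661208-8661237, minus strand): ctctccgcggcggGGACagaggcaccggtc
Adnp (chr2:168207076-168207105, minus strand): agggcaggttcggGGACttgctctgaggcg
Rspry1 (chr8:94601941-94601970, plus strand): GGACtgagggagggcccgggcggtgtgaag
Zc3hc1 (chr6:30390991-30391020, minus strand): atttacggccGGACcaagatggcggctacc
Matk (chr10:81252955-81252984, plus strand): aaagagttaagtcGGACccgcctagcaacc
Atp6v0c (chr17:24169649-24169678, minus strand): cgggGGACcgatgatcccaaaacccgtagg

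The next stretches are the first 30 transcribed bases of some of the sites missing on all 3 injured days, without GGAC in the window. The first annotated base is in capitals because the cap-adjacent mark needs an adenosine at the true start. The RefSeq start need not be the start used here: the peak start minus the annotated start was -10 bases in Mogs and -8 in Cdk5rap2. In Srsf1 and Evi5l the first annotated base was A, and in the other sequences shown it was G. Sites missing on all 3 days that are not shown included Tyw5, which began with C, Snapc4 with T and Cuedc1 with G.
H2ac18 (chr3:96245497-96245526, plus strand): Gggtctgcgtctataaaagagtgaggcgtc
Mogs (chr6:83115506-83115535, plus strand): Gctcggggaggcgcgcggcgaaggctcggt
Cdk5rap2 (chr4:70410406-70410435, minus strand): Gccgggaaagatggcggcggctgcggtttg
Lrch3 (chr16:32914100-32914129, plus strand): Ggcgcatgcgcagagccgggccggagagtt
Srsf1 (chr11:88047373-88047402, plus strand): Atctttttagagcgccgagctgctttcaga
Evi5l (chr8:4166567-4166596, plus strand): Agcggctcctgtcagcgggtgaaatggcag

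The motif was about as common in the starts of missing sites as elsewhere. GGAC was present in 21.3% of the 1040 start windows covered by the other strong sham peaks and in 18.9% of all 32817 RefSeq start windows of the same length. Its reverse complement GTCC, which is GGAC on the opposite strand, was in 29.3% of the missing sites' windows, in 16.8% of those of the other strong peaks and in 17.4% of all windows. The first base was A in 29.3% of the missing sites' windows, in 32.0% of those of the other strong peaks and in 34.4% of all. The median GC content was 66%, 64% and 56% in the same order. The sham peak began within 5 bases of the annotated start in 24 of the 41 missing sites (58.5%) and in 43.3% of the 1040 others. With 41 windows these shares are imprecise, and a match to the letters is a description of the sequence, not evidence of a methylated base.

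The labels name spinal cord as the tissue, and the input libraries held neuron and oligodendrocyte markers, which do not by themselves identify it. All 12 neuron markers and all 11 oligodendrocyte lineage markers passed the expression filter (a mean of at least 0.5 FPKM, fragments per kilobase of transcript scaled to the size of the library, over the 12 input libraries). Of 6 listed sensory ganglion markers, 4 (Trpv1, Avil, Scn10a and Scn11a) were below it. The other 2, Prph and Isl1, passed it and are also on the list of motor neuron markers. The FPKM values of a library summed to between 180340 and 201358, and 13273 to 13511 genes reached 1 FPKM. The third sham library and the third day 7 library stood apart. They correlated with each other at 0.983 and with the remaining libraries at 0.925 to 0.942, while the remaining libraries correlated at 0.979 to 0.988. RNA was read from FPKM alone, so the depth behind it is unknown.

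How often a strong peak goes missing depended on which list was the starting point. The same rule applied to strong day 3 peaks found 1813 of 22078 missing from at least 2 of the other lists, or 8.21%. For day 14 it was 1803 of 21939, or 8.22%, and for day 7 it was 282 of 20934, or 1.35%. The sham share of 2.27% was thus between that of day 7 and those of day 3 and day 14. The lists also differed in length, with 32669 rows for sham, 34136 for day 7, 38655 for day 14 and 40195 for day 3. A shorter list has fewer rows that can cover a site, and the part of length in these shares was not tested. With each injured list cut to the length of the sham list by lg.p, 660 sham sites were missing in place of 495.

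**Figure D1:**
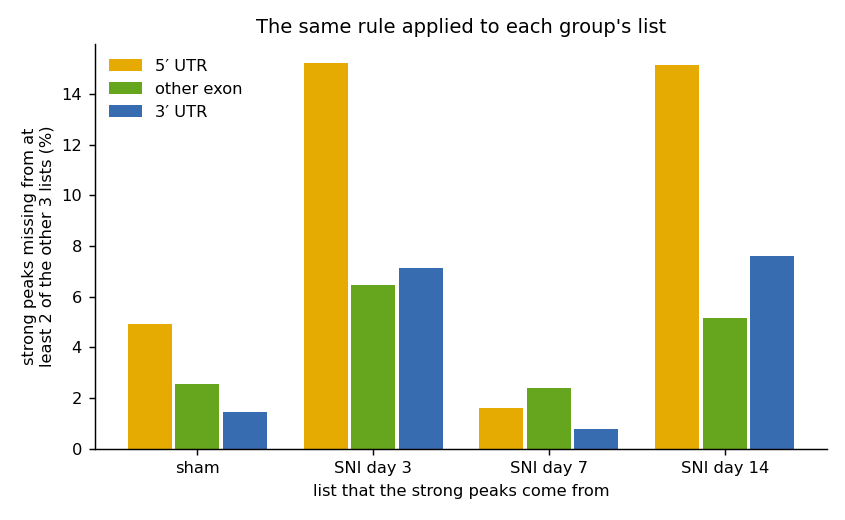
Percent of strong peaks of each group's list (x axis) that were missing from at least 2 of the other 3 lists (y axis), by region of the transcript. The bars for sham lie between those for day 7 and those for day 3 and day 14, and the 5′ UTR bar is the highest for sham, day 3 and day 14, while for day 7 the other exons are highest.

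Of the 495 sites, 151 (30.5%) were missing on all 3 injured days. Another 129 were missing on days 7 and 14, 121 on days 3 and 7, and 94 on days 3 and 14. Taken day by day, 1370 strong sham peaks (6.29%) had no overlapping row on day 7, against 606 (2.78%) on day 3 and 569 (2.61%) on day 14. Nearly all host genes had 1 such site (467 of 481), and 14 had 2. Both sites of Acbd3, a Golgi protein, of Ppfibp2, a liprin, and of Pank1, which makes the first committed step of coenzyme A synthesis, were missing on the same days, 7 and 14, and both sites of Bach2, a transcriptional repressor, on days 3 and 14. In Tsn, whose protein translin binds RNA and single-stranded DNA, and in Dnajb4, a heat shock cochaperone, the 2 rows overlapped each other and so mark 1 place. One row stood in the list 2 times with the same coordinates and gene. The 495 rows stood for 485 separate loci.

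The missing sites were the weak and narrow end of the sham peaks. Their median fold enrichment was 3.37, against 6.41 in the 21292 other strong sham peaks, their median lg.p was -8.07 against -52.3, and they covered a median of 151 bases of exon against 391. An lg.p above -10 was found in 65.5% of the missing sites and in 16.3% of the others, and a covered length of at most 100 bases in 28.3% against 4.37%. Host gene RNA was close in level, with a median of 3.49 FPKM for the missing sites' genes and 4.00 FPKM for those of the other peaks. At the edge of the rule, Tmem181a, Nsd3 and Fbxo27 sat at a fold enrichment of 2 and were taken, while Rab27a, Rpn1 and Lrrc57 at 1.99 were not. Cbx3 at an lg.p of -5.06 and Syne2 at -5.08 were taken, while Lrrn4cl, Nrg2 and Ccdc124 at -4.99 were not.

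**Figure D2:**
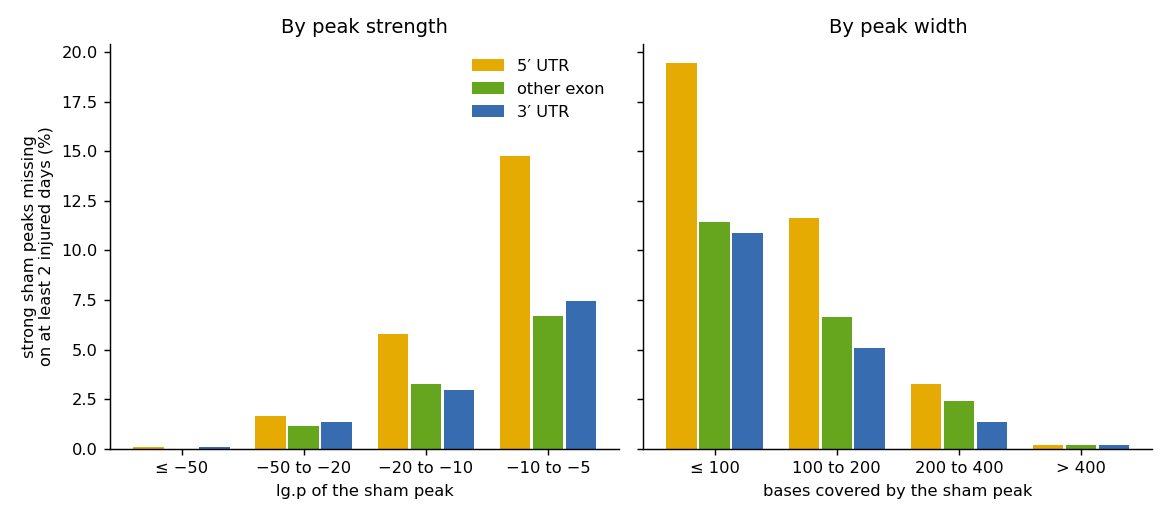
Percent of strong sham peaks missing on at least 2 injured days (y axis), by lg.p of the peak (left) and by the bases it covers (right), for peaks in 5′ UTRs, other exons and 3′ UTRs. The share falls from the weakest and narrowest peaks to near 0 in the strongest and widest, and the 5′ UTR bar is highest in each class except among the widest peaks.

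The missing sites were shifted toward the 5′ end of the transcript, a feature the rule did not use. The authors' annotation put 154 of them (31.1%) in a 5′ UTR, 166 (33.5%) in another exon and 175 (35.4%) in a 3′ UTR. The other strong sham peaks were 14.0% in 5′ UTRs, 29.6% in other exons and 56.4% in 3′ UTRs. Put the other way, 4.91% of strong 5′ UTR peaks were missing, 2.57% of those in other exons and 1.44% of those in 3′ UTRs. The 5′ UTR share was also the highest within classes of strength: among peaks with an lg.p between -10 and -5 the shares were 14.7%, 6.69% and 7.44%, and among peaks of at most 100 covered bases 19.4%, 11.4% and 10.9%. Among peaks of over 400 covered bases the shares were 0.18% in each region. The 5′ UTR share was also above the 3′ UTR share in each injured list under the same rule, at 15.2% against 7.12% for day 3, 1.60% against 0.79% for day 7 and 15.1% against 7.62% for day 14, so the order of these 2 regions was not particular to sham sites. The region is that of the transcript nearest to the peak, and in 72 of the 495 sites that gene was not the one the peak was assigned to.

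Among the 10 missing sites of highest fold enrichment with a host gene of at least 1 FPKM, 5 were 5′ UTR sites of at most 121 bases and 3 were in predicted genes. Zbed4, a zinc finger protein of the BED class, had a 3′ UTR site of 1315 bases at a fold of 84.4 that was missing on days 3 and 7. On day 14 a row of 4211 covered bases overlapped it at a fold of 380 and an lg.p of -116, against -25 in sham. Ahnak2, a giant scaffold protein, had an exon site at 55.4 missing on days 7 and 14, beside 10 other strong sham peaks. H2ac18, a replication-dependent histone H2A, had a 118-base site at the transcript start with a fold of 45.3 and an lg.p of -82.6, and neither it nor any other row of this gene was listed on an injured day. The histone result is uncertain, because H2ac18 has near-identical copies that can share its reads, rows of the opposite strand lay over the site on days 3 and 7, and its mRNA was listed at 0 FPKM in 8 of 12 input libraries.

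Further sites of high fold sat in the annotated 5′ UTR of genes for signalling proteins. Adcy5, an adenylyl cyclase that makes cAMP, had a 121-base site at its start with a fold of 35.6 that was missing on days 3 and 7, and Rab22a, a GTPase of early endosomes, had a 91-base one at 30.6 that was missing on all 3 days. Adra1d, the alpha-1D adrenergic receptor, had a fold of 29.8 over 60 bases, and Csk, the kinase that restrains Src family kinases, 28.1 over 120 bases, both missing on days 3 and 7. Of the sites missing on all 3 days, Tsn (25.7 and 20.7), Rbfox2 (20.7), Zfp74 (19.9), Mogs (19.9) and Sephs1 (18.2) followed. Mogs encodes the first glucosidase of N-glycan trimming and Sephs1 a selenophosphate synthetase relative. A high fold could go with little statistical support: the lg.p was -5.21 in Mogs and Zfp74 and -5.46 in Rbfox2, just inside the limit, and -18.5 in Adcy5 and -13 in Rab22a.

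A separate and small set had strong statistical support, with an lg.p of at most -50 in 7 sites (1.41%, against 51.0% of the other strong sham peaks). H2ac18 was one of them. The others were 3′ UTR sites: Unkl, a zinc finger and RING protein (fold 6.76, lg.p -242, missing on days 7 and 14), Nap1l4, a histone chaperone (2.08 and -108, days 7 and 14), Tex2, a lipid-binding protein of the endoplasmic reticulum (2.73 and -89.9, all days), Lysmd1 (3.81 and -74.2, all days), Gabarapl2, an autophagy protein of the Atg8 family (2.48 and -67.5, days 3 and 14), and Pgk1, the glycolytic phosphoglycerate kinase (3.63 and -57.9, all days). In Pgk1 the site of 61 bases was the only sham row, and no row of the gene was listed on any injured day. Its input RNA was 150, 144 and 97.6 FPKM in sham, 157, 155 and 155 on day 3, 152, 148 and 108 on day 7, and 152, 151 and 153 on day 14, so the missing peak was in an abundant mRNA. The lowest values were those of the 2 libraries that stood apart, and all 3 libraries of day 3 and of day 14 lay above all sham libraries. The differences from sham were 0.28 ± 0.17 (SE, log2), 0.06 ± 0.17 and 0.24 ± 0.17, with limma adjusted p-values of 0.695, 1 and 0.7. The day 3 difference of Pgk1 rested on those libraries: without both of them it was 0.08 ± 0.02 (limma adjusted p = 0.0454).

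Of the enzymes and proteins that act on m6A, the eraser Alkbh5 and the reader Fmr1 held missing sites. None of the 26 strong sham peaks of the writer genes was missing. Mettl3, Mettl14 and Mettl5 had 0 strong sham peaks, so no site of theirs could go missing under the rule. Of the strong sham peaks of the erasers 1 of 4 was missing, and of those of the readers 1 of 18, beside 2.27% of all strong sham peaks. With so few peaks these counts do not set one list apart from another. Alkbh5 had 2 strong sham peaks and no strong peak in any injured list, while Fto, the other eraser, had 2 strong peaks in every list.

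The missing Alkbh5 site lay at chr11:60538200-60538379 in the annotated 5′ UTR, on the plus strand, with a fold of 5.32 and an lg.p of -38.7, and was missing on all 3 days. The other sham peak of the gene, at chr11:60536381-60536591, had a fold of 21.5 and an lg.p of -10.2. It was listed again at a fold of 5.86 and an lg.p of -3.62 on day 3, at 11.3 and -4.23 on day 7 within a longer spliced span, and at 6.15 and -3.41 on day 14. A weak row at 2.01 and -2.38 on day 14 ended 59 bases before the missing site. Both sham peaks of Alkbh5 were thus below the limit of a strong peak or not listed on each injured day, with no value per library to test it. Alkbh5 RNA was 8.68, 8.23 and 9.95 FPKM in sham, 9.15, 9.21 and 8.71 on day 3, 8.33, 8.60 and 9.26 on day 7, and 8.25, 9.65 and 9.05 on day 14. The 4 groups overlapped, and the log2 differences from sham were 0.01 ± 0.09 (SE), -0.03 ± 0.09 and 0.01 ± 0.09 (limma adjusted p = 0.939, 1 and 0.979).

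In Fmr1, whose protein binds mRNA at synapses and is lost in fragile X syndrome, the missing site was chrX:68678541-68678601 at the transcript start (61 bases, fold 4.97, lg.p -5.88). On day 3 a row of 211 bases at a fold of 2.34 overlapped it, on day 14 a row at 1.97 began 59 bases after it, and on day 7 no row was near. Fmr1 RNA was 4.46, 4.37 and 6.98 FPKM in sham, 4.07, 4.42 and 4.22 on day 3, 4.40, 4.17 and 6.34 on day 7, and 4.55, 4.25 and 4.24 on day 14. The high values were the 2 libraries that stood apart, the groups overlapped, and the limma adjusted p-values were 0.695, 1 and 0.7. Of the 23 writers, erasers and readers tested, limma called 0 on each day. Over all genes tested the shares called were 0.0578%, 0.103% and 0.0514% on days 3, 7 and 14. An unadjusted p below 0.05 was found in 0 of the 23, beside 6.24%, 2.53% and 4.92% of all genes. With 23 genes, a count of 0 is near these shares. The log2 differences of the 23 from sham ran from -0.36 to 0.23 on day 3, from -0.11 to 0.11 on day 7 and from -0.37 to 0.16 on day 14.

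**Figure D3:**
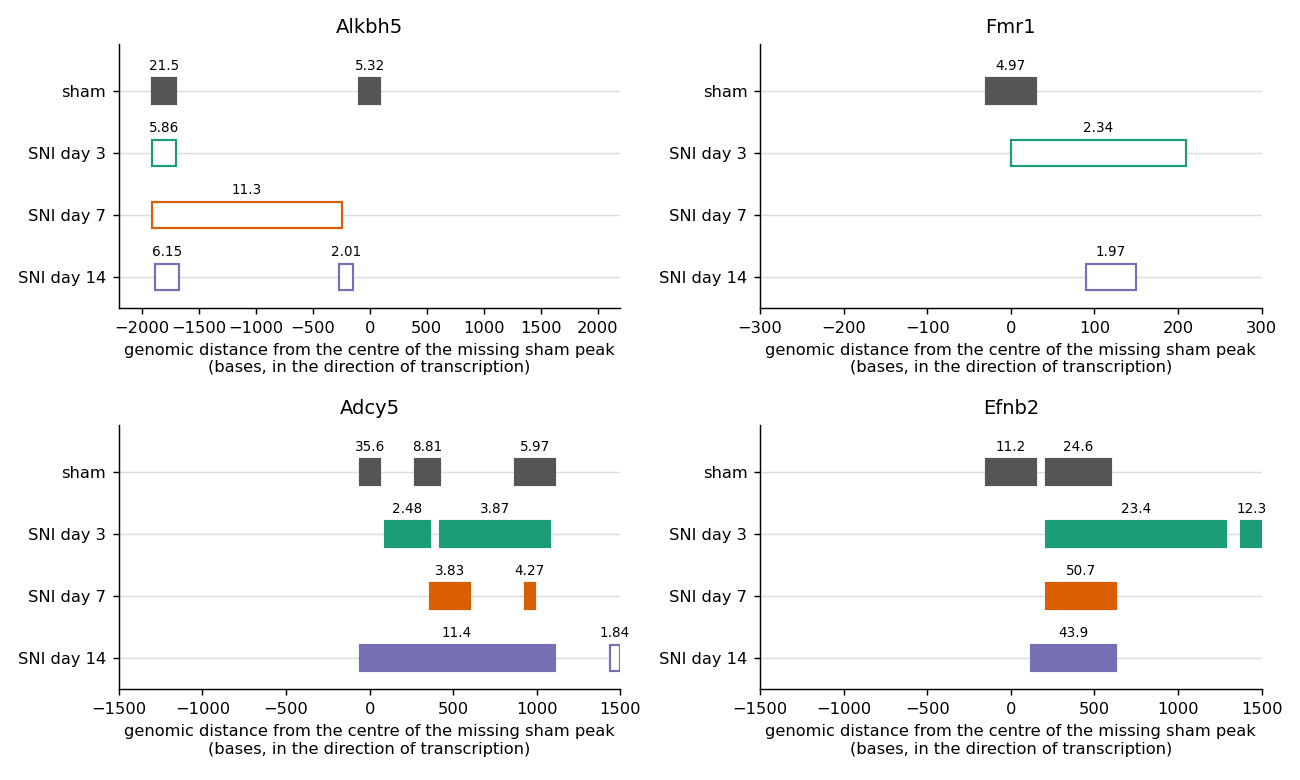
Peak rows of 4 host genes around the centre of the missing sham site (x axis, genomic bases in the direction of transcription), with 1 line per group. Filled bars are strong rows (fold enrichment at least 2, lg.p at most -5), open bars are weaker rows, numbers are fold enrichments and bars show the whole span of a row, introns included. Alkbh5 keeps only weak rows after injury, while Adcy5 and Efnb2 keep strong rows close to the missing site.

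Axon guidance genes held 7 missing sites of 129 strong sham peaks (5.43%, beside 2.27% over all strong sham peaks), in 3 ligands and 4 receptors. Among the ligands, Efnb2, the transmembrane ligand ephrin-B2, had a 300-base site at its start with a fold of 11.2 and an lg.p of -7.28, missing on days 3 and 7. A strong 5′ UTR peak began 59 bases downstream in sham, at a fold of 24.6, and was listed on each injured day at 23.4, 50.7 and 43.9. The day 14 row reached into the missing site. Ntn1, the attractant netrin-1, had an exon site (fold 5.46) that was missing on days 3 and 7, between a 3′ UTR peak that was strong in all 4 lists and a start peak at 24 in sham and 29.3, 28.2 and 19.3 after injury. Ntn3, a related netrin, had a 5′ UTR site at a fold of 6.15 that was missing on days 7 and 14.

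Among the receptors, Ephb2, which binds ephrin-B ligands, had a 3′ UTR site at 4.76 missing on days 7 and 14, while its main 3′ UTR peak was at 20.1 in sham and at 16.2, 21.4 and 19.3 on days 3, 7 and 14. Plxnd1, a semaphorin receptor, had a 61-base site at 3.88 missing on all 3 days. Nrp1, a co-receptor for semaphorins and VEGF, had a start site at 2.02, and its 3′ UTR peak was at 14.6 in sham and 11.3, 12.3 and 13.3 after injury. In Robo2, a receptor for the Slit repellents, the missing site was the only row of the sham list (fold 2.44, lg.p -10.7, chr16:74352563-74352863), and the rows listed after injury were elsewhere in the gene, the nearest 58392 bases away. Apart from Robo2, each of these genes thus kept a strong peak elsewhere on at least 1 injured day. The RNA of Robo2 was 3.54, 3.31 and 4.96 FPKM in sham, 3.29, 3.15 and 3.41 on day 3, 3.35, 3.54 and 4.69 on day 7 and 3.63, 3.38 and 3.44 on day 14. Its groups overlapped, and its limma adjusted p-values were 0.695, 1 and 0.702.

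Synaptic genes held 5 sites of 187 (2.67%), of which Snapc1 and Snapc4 were matched by name and encode subunits of a complex for small nuclear RNA transcription. Nrxn3, a presynaptic adhesion protein, had a 91-base exon site at a fold of 5.06 and an lg.p of -36.4 that was missing on all 3 days. Its long 3′ UTR peak was at 9.41 in sham and at 7.19, 8.43 and 8.23 on days 3, 7 and 14. Shank2, a postsynaptic scaffold, had a 5′ UTR site at 4.78 missing on all 3 days, while its main 3′ UTR peak was at 16.9, 13.5, 13.6 and 12.1 in the same order. Dlg4, the postsynaptic scaffold PSD-95, had a spliced 5′ UTR site at 3.44 that was missing on days 3 and 7, and its 3′ UTR peak remained strong in all 4 lists. These genes therefore kept their main 3′ peaks, and the missing sites were small ones far upstream.

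Ion channels held 2 sites of 230 (0.870%). Kcnma1, the large-conductance calcium-activated potassium channel, had a start site of 301 bases at a fold of 4.61 that was missing on days 3 and 14, and Kcnn3, a small-conductance relative, a 3′ UTR site at 3.31 missing on the same days. Kcnma1 RNA was 5.24, 5.18 and 12.3 FPKM in sham, 5.21, 5.36 and 5.27 on day 3, 5.49, 5.08 and 11.1 on day 7 and 5.14, 5.02 and 5.41 on day 14. The values above 11 belonged to the 2 libraries that stood apart, so groups overlapped, and the limma adjusted p-values were 0.695, 1 and 0.7. Of the 77 strong sham peaks of glutamate receptor and transporter genes and the 39 of GABA and glycine transmission, 0 were missing, beside 2.27% of all strong sham peaks.

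Genes for RNA-binding and splicing proteins held 6 sites of 230 (2.61%). Srsf1, a splicing factor rich in arginine and serine, had a 240-base site at its start (fold 6.76, lg.p -7.42) that was missing on all 3 days. Its 3′ UTR peak near chr11:88051035 was listed at 2.48 in sham and at 2.65, 2.65 and 2.89 on days 3, 7 and 14, and a further 3′ UTR peak at 2.22 in sham and 3.67, 3.91 and 4.55 after injury. Srsf1 RNA was 26.0, 25.7 and 31.3 FPKM in sham, 26.7, 26.2 and 25.8 on day 3, 24.7, 25.9 and 30.7 on day 7 and 25.5, 26.1 and 25.7 on day 14, with overlapping groups and limma adjusted p-values of 0.745, 1 and 0.7. Rbfox2 and Rbfox3, splicing regulators of which Rbfox3 is the neuron marker NeuN, each had a 5′ UTR site, at folds of 20.7 (all days) and 2.95 (days 3 and 7). Rbm48 (6.62), the helicase Ddx54 (3.19) and Rbm27 (2.43) made up the list.

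The lists of nuclear and adhesion proteins are given beside the same 2.27%, with no test of a difference. Chromatin regulators had 2 sites of 236 (0.847%), in Brpf3, a subunit of a histone acetyltransferase complex (fold 3.92), and Nsd3, a histone methyltransferase, at the limit of 2. The homeobox list had 1 of 155, in Hoxb7, whose 3′ UTR site of 179 bases (2.98, lg.p -21.3) was missing on all 3 days directly beside a strong peak of 3.8 in sham and 3.68, 4.31 and 4.02 after injury. Zinc finger genes had 12 of 1041 (1.15%). Zfp451, a SUMO ligase, led them at 22.3, followed by Zfp74 at 19.9 and the 2 neighbouring sites of Zfp469 at 7.45 and 6.76. Cell adhesion genes had 1 of 260 (0.385%), in Pcdhb11, a clustered protocadherin.

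Signalling and enzyme groups were near the share of all strong sham peaks. Protein kinases and phosphatases had 12 of 411 (2.92%), led by Ptprj, a receptor tyrosine phosphatase (14.9), Stk40, a pseudokinase (9.27), and the mitochondrial phosphatase Ptpmt1 (7.61), next to Cdk5rap2 (15.7), a centrosome protein matched by its name. Small GTPases and their regulators had 10 of 378 (2.65%). In Rhoa, which controls the actin cytoskeleton, a 61-base site at 17.4 was the only sham row. It was listed on day 7 with the same coordinates at 5.64 and was not listed on day 3 or day 14. Arhgap33, a sorting nexin with a GTPase-activating domain, had a start site at 11.2. Ubiquitin ligases and related genes had 10 of 474 (2.11%), including Fbxo45 (17.4), Trim3 (7.03, all days), the conjugating enzyme Ube2d3 (4.34) and Klhl29 (4.01). Solute carriers had 8 of 345 (2.32%), with Slc35d3 at 8.55 the highest. Cytoskeletal motors had 4 of 194 (2.06%), from Kif7 (9.38), a kinesin of hedgehog signalling, Kifc5b (5.52) and both sites of Kif26b (2.97 and 2.77). Extracellular matrix genes had 2 of 110 (1.82%), Col6a2 (18.2) and Adam33 (3.08).

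The lists of cell type markers and injury genes are too short to set against the 2.27% of all strong sham peaks. Of the marker lists, neurons had 1 of 14 strong sham peaks (Rbfox3) and microglia 1 of 16 (Csf1r), while the 25 of the oligodendrocyte lineage and the 14 of astrocytes had none. The 25 strong peaks of genes for axon injury and pain peptides had none. With 1 or 2 sites per list these shares describe the lists and do not set one apart from another.

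In 353 of the 495 sites (71.3%) the host gene had a further strong sham peak that was not missing. In 484 (97.8%) the gene had a row in at least 1 injured list. That count can include rows over the site itself, which the rule leaves in place for the 344 sites missing on exactly 2 days. The 11 sites with no row of the gene in any injured list included H2ac18, Pgk1, the chromatin protein Hmga1, and Usp28, a deubiquitinase. Each site missing on a given day is one absence, and there were 1141 absences over the 3 days. In 13.6% of them the list of that day had no row for the gene, in 13.7% the nearest row of the gene was within 100 bases of the site and in 43.3% within 1000 bases. Where a row existed, its median distance was 979 bases. A row of the opposite strand lay over 19 sites on a day of absence, among them Ndufs3, a complex I subunit, on all 3 days. In Hoxb7 and Csf1r a row of the gene ended 58 bases from the missing site, while in Nrxn3, Srsf1 and Rab22a no row of the gene came within 1000 bases on any day of absence.

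Most sites that were still listed on 1 injured day had a lower fold there, while a smaller part, such as Unkl (6.76 in sham and 7.96 on day 3), had a higher one. Of the 344 sites missing on exactly 2 days, 129 were listed on day 3, 94 on day 7 and 121 on day 14, and 97 of the 344 (28.2%) were strong on that day. The median fold was 3.47 in sham and 2.49 on day 3 for the first set, 3.46 and 2.95 for the second, and 3.44 and 2.61 for the last. The fold was below that of sham in 80.6%, 85.1% and 82.6% of them. The other strong sham peaks also had a lower fold in the injured list more often than not, in 63.1%, 60.5% and 60.3% of cases on days 3, 7 and 14, with medians of 6.46 against 5.95, 6.54 against 6.23 and 6.44 against 6.15. Since each peak was taken for its strength in sham, a lower value elsewhere is part of the choice and no test is given.

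**Figure D4:**
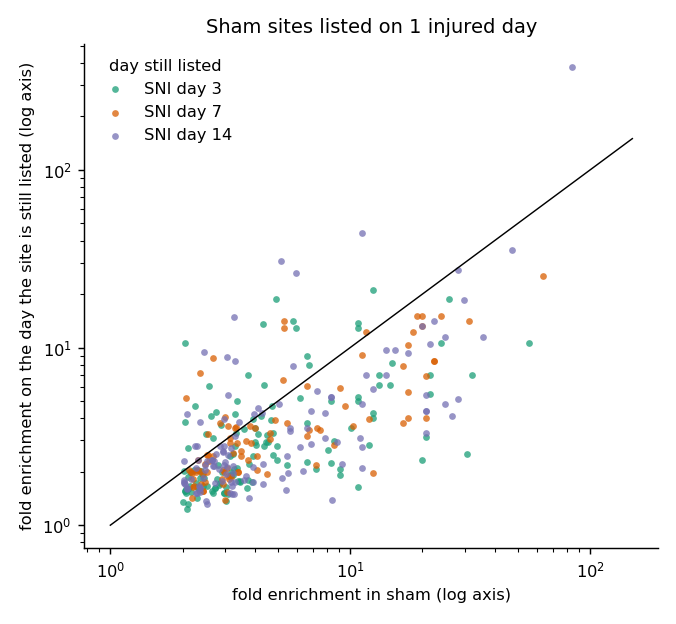
Fold enrichment in sham (x axis, log scale) and in the 1 injured list that still held the site (y axis, log scale) for 344 sites, 1 point per site, coloured by day. The line marks equal values, and most points lie below it on each day.

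Input RNA of the host genes was not used by the rule and was tested. Of 15564 genes tested by limma with Benjamini-Hochberg adjustment, 8 rose and 1 fell on day 3 (0.0514% and 0.00643%), 16 rose and 0 fell on day 7 (0.103% and 0%), and 8 rose and 0 fell on day 14 (0.0514% and 0%). Among the 438 host genes tested, 0 rose and 0 fell on each day. At an unadjusted p below 0.05 there were 21 host genes on day 3 (4.79%, beside 6.24% of all genes), 8 on day 7 (1.83%, beside 2.53%) and 15 on day 14 (3.42%, beside 4.92%). The median log2 difference of host genes was -0.02, -0.00 and 0.01, and that of all genes 0.03, 0.01 and 0.03. The 3 comparisons share the sham libraries, and input reads are also the denominator of the fold enrichment, so the RNA and the peak values are not fully separate measurements.

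Leaving out both libraries that stood apart changed these counts. The spread then shrank, and 26 host genes passed on day 3 (13 rose, 13 fell), 7 on day 7 (3 and 4) and 17 on day 14 (9 and 8). These were 5.94%, 1.60% and 3.88% of the host genes, beside 7.07%, 1.11% and 4.71% of all genes, so the host genes were near the background in either fit. Without the third sham library alone, 1 host gene passed on day 3 (Csf1r), and without the third day 7 library alone, 1 passed (Olfml3).

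Csf1r, the receptor that keeps microglia and macrophages alive, had a 3′ UTR site of 211 bases (fold 2.83, lg.p -13.7) that was missing on days 3 and 7 and was covered again on day 14 at 2.06. It lay between peaks of 3.46 and 9.60 in sham that were strong in all 4 lists. Csf1r RNA was 12.1, 11 and 7.98 FPKM in sham, 15.9, 15 and 15.5 on day 3, 14.9, 15 and 14.1 on day 7 and 13.8, 13.8 and 13.6 on day 14. Every injured library was above every sham library, and the lowest sham value was that of the third library. The log2 differences were 0.57 ± 0.12 (SE), 0.50 ± 0.12 and 0.41 ± 0.12, with limma adjusted p-values of 0.239, 0.553 and 0.7 over all libraries. They were 0.40, 0.35 and 0.24, with adjusted p-values of 0.000836, 0.00645 and 0.014, without both libraries that stood apart.

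Csf1r is one of 11 genes in the list of microglia and macrophage markers. The summed level of the list was 111 to 136 FPKM in sham, 184 to 190 on day 3, 184 to 212 on day 7 and 159 to 165 on day 14. All 11 genes passed the expression filter, and 1, 1 and 0 of them passed the test. Over all genes tested the shares called were 0.0578%, 0.103% and 0.0514% on days 3, 7 and 14. The summed level of the 5 blood markers, hemoglobin genes and Alas2, was 189 to 318 FPKM in sham, 424 to 517 on day 3, 571 to 693 on day 7 and 355 to 369 on day 14. On day 7, 5 of 5 rose (limma, adjusted), beside 0.103% of all genes tested. In whole tissue, more cells of a type and more RNA per cell cannot be told apart, and the part of microglia or blood in the Csf1r values was not tested.

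A further 4 host genes are given for their RNA, picked after their values were seen; the 3 days share the sham libraries. Olfml3, a secreted olfactomedin-like protein with a 61-base exon site at a fold of 9.10, was at 2.26, 2.33 and 1.52 FPKM in sham, 4.44, 3.88 and 3.74 on day 3, 3.28, 3.24 and 4.37 on day 7 and 2.60, 2.41 and 2.68 on day 14. All injured libraries were above all sham libraries, with log2 differences of 0.85, 0.71 and 0.29 (each ± 0.15, SE) and limma adjusted p-values of 0.11, 0.265 and 0.7. Without both libraries that stood apart, Olfml3 rose by 0.69 on day 3 and 0.43 on day 7 (limma adjusted p = 0.000996 and 0.043). Gfra1, the receptor that binds GDNF, had a spliced 5′ UTR site at 3.8 missing on days 3 and 7 and RNA of 13.6, 13.8 and 16.4 FPKM in sham, 17.3, 17.7 and 16.8 on day 3, 17.8, 18 and 21.5 on day 7 and 17.6, 18.2 and 17.7 on day 14. Again no sham library reached the injured ones, and the differences were 0.24, 0.37 and 0.28 (each ± 0.09, SE; limma adjusted p = 0.695, 0.559 and 0.7). Without both libraries that stood apart, they were 0.32, 0.37 and 0.37, with limma adjusted p-values of 0.00051, 0.00111 and 0.000259.

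The other pair had lower values in most injured libraries. Gvin1, a very large interferon-inducible GTPase with near-identical relatives that can share its reads, had an exon site of 1287 bases at a fold of 25.7 that was missing on days 7 and 14. Its RNA was 1.18, 1.29 and 0.94 FPKM in sham, 0.714, 0.691 and 0.657 on day 3, 0.572, 0.543 and 1.02 on day 7 and 0.619, 0.864 and 0.74 on day 14. All day 3 and day 14 libraries were below sham, and day 7 overlapped sham through its replicate 3. The log2 differences of Gvin1 were -0.46, -0.45 and -0.40 (limma adjusted p = 0.695, 1 and 0.7) over all libraries and -0.54, -0.71 and -0.48 (0.0158, 0.0223 and 0.0328) without both that stood apart. Rnf213, a large ubiquitin ligase, had an exon site at 3.37 missing on days 3 and 14 and RNA of 2.28, 2.65 and 2 FPKM in sham, 1.64, 1.68 and 1.68 on day 3, 1.78, 1.73 and 2.53 on day 7 and 1.87, 1.91 and 1.86 on day 14. Its groups overlapped on day 7 alone. The log2 differences of Rnf213 were -0.37, -0.17 and -0.24 (limma adjusted p = 0.695, 1 and 0.7), and -0.45, -0.39 and -0.32 (0.00444, 0.0369 and 0.0276) without both libraries.

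**Figure D5:**
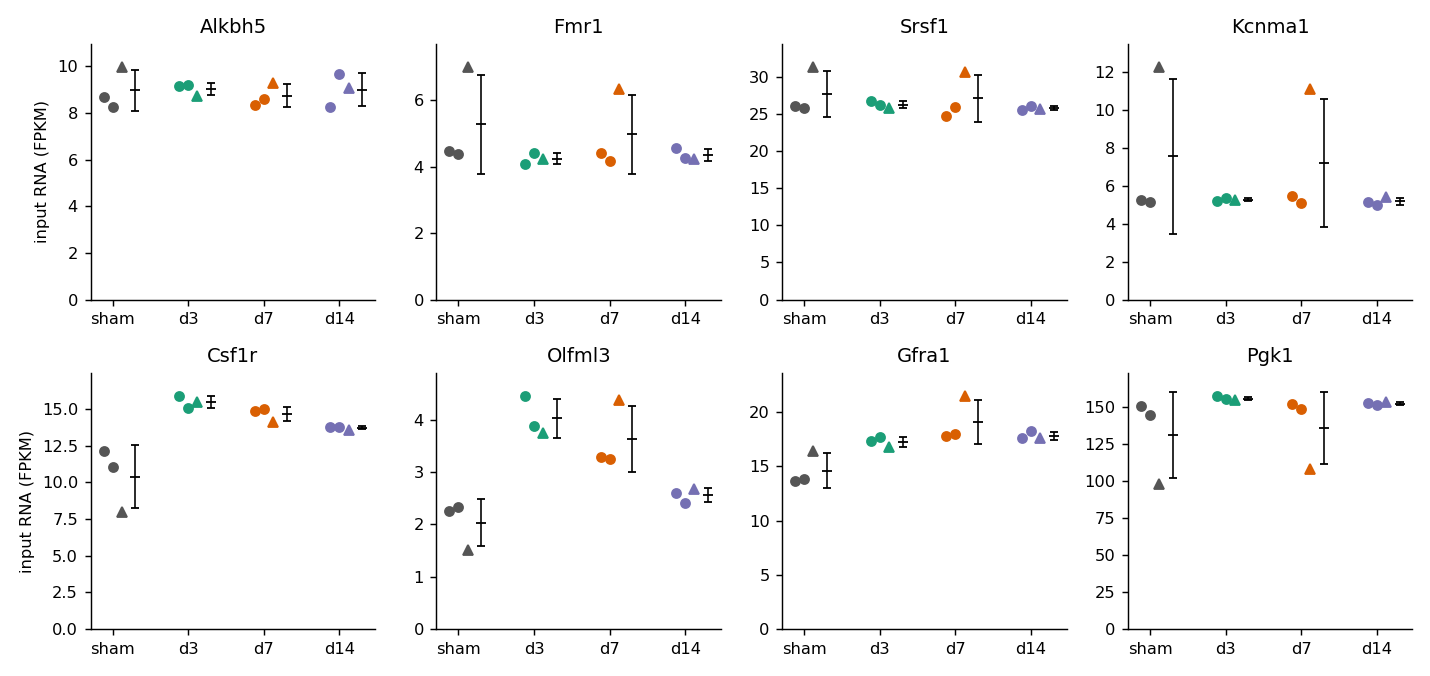
Input RNA in FPKM (y axis, from 0) of 8 host genes in sham (grey), day 3 (green), day 7 (orange) and day 14 (purple), 1 point per library, with a triangle for the third library of each group and a bar for the mean ± SD of 3. Csf1r, Olfml3 and Gfra1 have all injured libraries above sham, and in Kcnma1, Fmr1 and Pgk1 the triangles of sham and day 7 stand apart from the rest.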

How the data were processed

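The authors' gene table gives FPKM for 32884 genes in 12 input libraries, per the file headers. The deposited peak lists give a fold enrichment (a ratio) and lg.p and lg.fdr, used here as scores, per the file headers. HISAT2, ChIPseeker, StringTie and edgeR are named in the submitters' processing notes, while versions, build, peak caller and pooling of replicates were not given in the sources used here. Of 26219 gene symbols matched to RefSeq on GRCm38.p6, 99.9% overlapped the gene of that name, so that build was used for start sequences. Peak starts count from 0 in the files and are given from 1. Strand is that of the assigned gene, and 21 strong sham peaks without one were left out. The overlap code was checked against bedtools 2.31.1.

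RNA was fitted as log2(FPKM + 0.5), a scale that understates changes of low genes, for the 15564 genes that averaged 0.5 FPKM or more, with limma 3.58.1 in R 4.3.3 (4 group means in 1 fit, eBayes with trend, Benjamini-Hochberg threshold 0.05), after a check on simulated data. Depth is unknown, so precision rests on the spread of 3 libraries. Same-numbered libraries correlated in their deviations at 0.459 to 0.793 for sham and day 7, at -0.105 to 0.0888 for sham and day 3 and at -0.0245 to 0.0471 for sham and day 14. For sham and day 7, differently numbered libraries ran from -0.692 to 0.619, with replicates 1 and 2 of both groups correlated whichever way they were matched and replicate 3 of each apart from them.

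The sites and gene lists were chosen with earlier results of these data known. Sites were named by fold enrichment, taking the 10 highest overall and the 10 highest missing on all 3 days. Both sets needed host genes of at least 1 FPKM. Sites were also named by 32 gene lists, at the limits of the rule, and where a gene held 2. Up to 4 were named per list, except that the axon guidance, synaptic and RNA-binding lists were named in full. Predicted genes were counted and not named, and some lists match by name alone. Other genes named, including those with an lg.p at most -50, those with start sequences, Olfml3, Gfra1 and Gvin1, were chosen after their values were seen.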

Additional observations from a re-analysis of the deposited data

How the results depend on the processing

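The number of missing sham sites (495) depends on the rule. It was 8129 with a reciprocal overlap of 50% in place of 1 shared base, 2532 when an injured row had to be strong to count, 4578 with no limit on sham peaks, 87 with a fold of at least 3 and an lg.p of at most -10, 151 when missing on all 3 days was asked for and 1899 when 1 day was enough. It stayed within 1.5 times under 5 other settings: exonic blocks (500), a gap of 100 bases allowed (393), strand ignored (477), injured lists cut to the length of the sham list (660) and lg.fdr for lg.p (395). For host gene RNA, limma called 0 on each day, and 26 on day 3, 7 on day 7 and 17 on day 14 without both libraries that stood apart. Leaving out 1 library at a time gave 0 to 1 on day 3 (1 without sham replicate 3 and 1 without day 7 replicate 3), 0 to 0 on day 7 and 0 to 0 on day 14. With the replicate number as a block the count was 0 on each day, as it was for day 7 in a fit of the 6 sham and day 7 libraries chosen after seeing the data, so the replicate block changed no call. Other pseudocounts, filters, scalings and fits of 2 groups also gave 0. The median log2 difference of host genes on day 3 was -0.07 after rescaling each library to TPM, against -0.02. The cause of these shifts was not tested. Depth cannot be given from FPKM, and a site with 1 list per group has no error, so a missing row does not show that a base lost its mark.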
